A study of Macaca fascicularis with 2 samples.

Results

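The genes described here are 39 interferon-stimulated genes, named by symbol, of which 37 had a feature of that name among the 28845 features of the deposited tables. IFITM2 and IFITM3 had no feature of that name and have no value here. How reads of these close paralogs were assigned was not tested, so a level printed for IFITM1 may hold some of them. The genes were measured by single-cell RNA sequencing (10x Genomics 3' kit, version 3, polyadenylated RNA) in testis of the cynomolgus monkey, Macaca fascicularis. The abdominal testis library (UAT) came from a testis that the study title describes as made cryptorchid by artificial means on 1 side, and the scrotal library (CST) from the testis of the other side. There was 1 library per group; the labels give neither the number nor the age of the animals, nor the time spent in the abdomen. No difference below therefore has a replicate check, no p-value is given, and animal, testis position and library cannot be told apart.

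Interferons are secreted proteins that cells release on sensing viral or misplaced nucleic acid. Type I and type III interferons bind paired receptors, whose kinases JAK1 and TYK2 activate transcription factors, STAT2 and IRF9 among them, that switch on the interferon-stimulated genes. Interferon gamma acts through another receptor pair. The products block viral replication at many steps, and many of them also have a base level of expression in resting tissue, the testis included.

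UAT held 12564 barcodes with 111047299 unique molecular identifiers (UMIs, counts of captured RNA molecules), a median of 7194 per barcode. CST held 15952 barcodes and 197225937 UMIs, a median of 5439. The libraries shared 50 barcode sequences. Cells were gated by marker genes, and UMIs were summed over the cells of a gate and given as UMIs per 1000000 UMIs of that gate (CPM). The intervals printed are exact 95% intervals on the UMIs or cells counted and cover counting error only. The endothelial gate held 1468 cells in UAT and 337 in CST, with PECAM1 detected in 85.8% and 73.3% of them. The stromal gate held 5894 and 1617 cells, the myoid gate 1223 and 413, the pericyte gate 437 and 70, the macrophage gate 641 and 95, and the T cell gate 279 and 65. The spermatogonia gate held 218 and 721 cells, with the germ cell gene DDX4 detected in 86.2% and 83.1%. Sertoli cells (696 and 31) and Leydig cells (173 and 19) were under the 50 cells per library required for a comparison, and their values are set side by side with no comparison drawn. UAT had 3 spermatocytes and 0 spermatids, against 3230 and 6754 in CST. RNA of other cells was present in the gates. The spermatid gene PRM1 stood between 1042 and 2821 CPM in the CST gates compared here and at most 2.25 CPM in UAT, and the stromal gene DCN stood at 226 CPM in UAT endothelial cells and 18.9 CPM in CST ones.

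Among the classes with at least 50 cells, endothelial cells carried the highest level of most of these genes in both testes. They ranked first for 30 of the 37 genes in CST and for 23 of 37 in UAT. The UAT ranking also held NK, Sertoli, Leydig, and B and plasma cells, which had under 50 cells in CST. The 2 counts thus come from different sets of classes. In UAT, NK cells ranked first for 5 genes and Sertoli cells for 4. The 31 CST Sertoli cells were not ranked, and their IFI6 level is given below. For many genes the intervals of the first and second class overlapped. Summed over the 37 genes, endothelial cells stood at 7800 CPM in UAT and 9125 CPM in CST. Stromal cells stood at 3424 and 3489 CPM, T cells at 3412 and 2863, pericytes at 3038 and 3357, myoid cells at 2373 and 1807, and macrophages at 1602 and 2908. Spermatogonia were lower, at 732 and 771 CPM, and CST spermatocytes and spermatids lower still, at 86.1 and 69.0 CPM. The per-cell medians gave the same contrast between vessel and germ cells: 7000 CPM in UAT and 7881 CPM in CST for endothelial cells, against 0 for spermatids, of which 36.3% had any UMI of the 37 genes. IFI27, a small mitochondrial membrane protein, was led by endothelial cells in both libraries. Its level was 3177 CPM in UAT and 3230 CPM in CST endothelial cells, and the next classes were Leydig cells in UAT (1386 CPM) and pericytes in CST (1086 CPM). IFI16, a sensor of DNA, had the same leading class, with 1023 and 881 CPM against 553 and 384 CPM in stromal cells, the next in order. Lymphocytes led for IFITM1, a membrane protein that hinders virus entry: NK cells (1684 CPM) and T cells (1591 CPM) in UAT had overlapping intervals, and T cells led in CST at 1118 CPM.

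**Figure D1:**
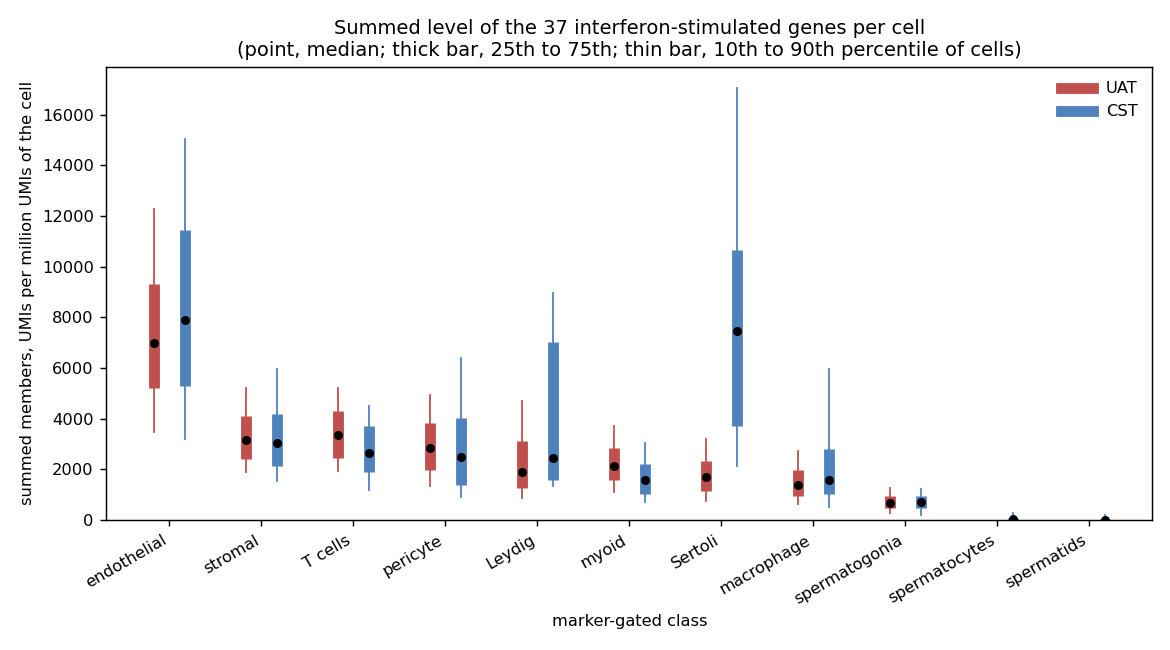
Summed UMIs of the 37 interferon-stimulated genes in CPM of each cell (vertical axis) by marker-gated class, with the median, the 25th to 75th and the 10th to 90th percentiles of cells in UAT (red) and CST (blue). Endothelial medians lie at 7000 and 7881 CPM, spermatids lie at 0, and the 31 CST Sertoli cells have a median of 7473 CPM and the 696 UAT ones of 1698 CPM, with too few CST cells for a comparison.

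In endothelial cells ISG15, IFI6, MX1, MX2, OAS1, OAS3, IFI44, RSAD2, CMPK2, HERC6 and DDX58 were at least 1.5-fold lower in the abdominal testis, SAMD9 was at least 1.5-fold higher and IFI27 was level. Of the 37 genes, 35 reached 20 CPM in either library; OASL and USP18 did not. Of those 35, 11 were at least 1.5-fold lower in UAT, where 15.0% of all 8035 features at that level were, and 1 was at least 1.5-fold higher, where 6.87% of all features were. The median log2 ratio of UAT over CST was -0.33 for the 35 genes and -0.05 for all features. The counting interval lay below 1 for 22 of the 35 genes and above 1 for 4. Intervals of all features were not counted in this way, so these counts have no background beside them. The same holds for the interval counts of pericytes, macrophages and T cells below.

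ISG15, the ubiquitin-like protein that is joined to other proteins after interferon, had 44.1 CPM in UAT endothelial cells and 178 CPM in CST ones. The ratio was 0.248 (interval 0.213 to 0.289). HERC6, a relative of the ligase that attaches ISG15 in human cells, had a ratio of 0.623, and HERC5, that ligase itself, one of 0.806 (0.678 to 0.963). ISG15 and HERC6 were thus at least 1.5-fold lower in UAT and HERC5 was not. The dynamin-like GTPases, which trap incoming viral particles, were lower too. MX1 stood at 114 and 199 CPM, a ratio of 0.575 (0.505 to 0.657). MX2 stood at 12.9 and 58.3 CPM, a ratio of 0.221 (0.169 to 0.293).

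The oligoadenylate synthetases OAS1, OAS2 and OAS3 answer double-stranded RNA by making the messenger that turns on RNase L. OAS1 had 41.6 CPM in UAT against 110.0 in CST, or a ratio of 0.378 (0.315 to 0.457). OAS3 had a ratio of 0.637 (0.508 to 0.807) and OAS2 one of 0.703 (0.571 to 0.873). All 3 intervals lay below 1, but OAS2 stayed within 1.5-fold. EIF2AK2, the kinase PKR that stops translation on binding double-stranded RNA, had a ratio of 0.794 (0.658 to 0.964). The IFIT proteins, which bind foreign RNA ends, differed less. IFIT1 had 163 and 208 CPM (ratio 0.782), IFIT2 97.3 and 139 CPM (0.699) and IFIT3 191 and 256 CPM (0.743, interval 0.664 to 0.833). IFIT5 was level, at 62.6 CPM in UAT and 62.7 CPM in CST. None of the 4 IFIT genes passed 1.5-fold.

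Among the other effectors, IFI6, a membrane protein that protects cells against flaviviruses, had 461 CPM in the abdominal and 1150 CPM in the scrotal testis, a ratio of 0.401 (0.379 to 0.424). RSAD2, the enzyme viperin that makes a chain-ending nucleotide, had 30.5 and 73.6 CPM, a ratio of 0.415 (0.333 to 0.522). CMPK2, a nucleotide kinase, lies next to RSAD2 in gene order and had a ratio of 0.473 (0.368 to 0.614). IFI44 had 86.8 and 138 CPM, a ratio of 0.630, while its neighbour IFI44L was level at 0.917 (0.748 to 1.13). Of the RNA sensors, DDX58, which encodes RIG-I, had a ratio of 0.609 (0.501 to 0.746), whereas IFIH1, which encodes MDA5, had one of 1.03 (0.836 to 1.28). The transcription factors differed little: IRF1 had a ratio of 0.827, IRF9 one of 0.817, IRF7 one of 0.794 and STAT2 one of 0.731, the last 2 with intervals that included 1. IFI27 itself had a ratio of 0.984 (0.954 to 1.02).

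The genes on the other side of 1 were few. SAMD9, an endosomal protein that restricts poxviruses, had 111 CPM in UAT against 73.6 in CST, or a ratio of 1.51 (1.24 to 1.87). BST2, the tether that holds budding virions on the cell, had 214 and 143 CPM, a ratio of 1.497 (1.30 to 1.74), just short of 1.5. IFI16 had a ratio of 1.16 (1.10 to 1.23) and IFITM1 one of 1.118 (1.044 to 1.198), so these abundant transcripts differed by far less than ISG15 or IFI6. The IFITM1 ratio turned to 0.977 with a stricter endothelial gate. The lymphatic markers summed to 630 CPM in UAT and 812 CPM in CST endothelial cells, with all 6 detected in both. Leaving out every cell with a UMI of them kept 423 of 1468 cells in UAT and 198 of 337 in CST. This removed most UAT endothelial cells. In the cells kept, the number of genes at least 1.5-fold higher was 2.

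**Figure D2:**
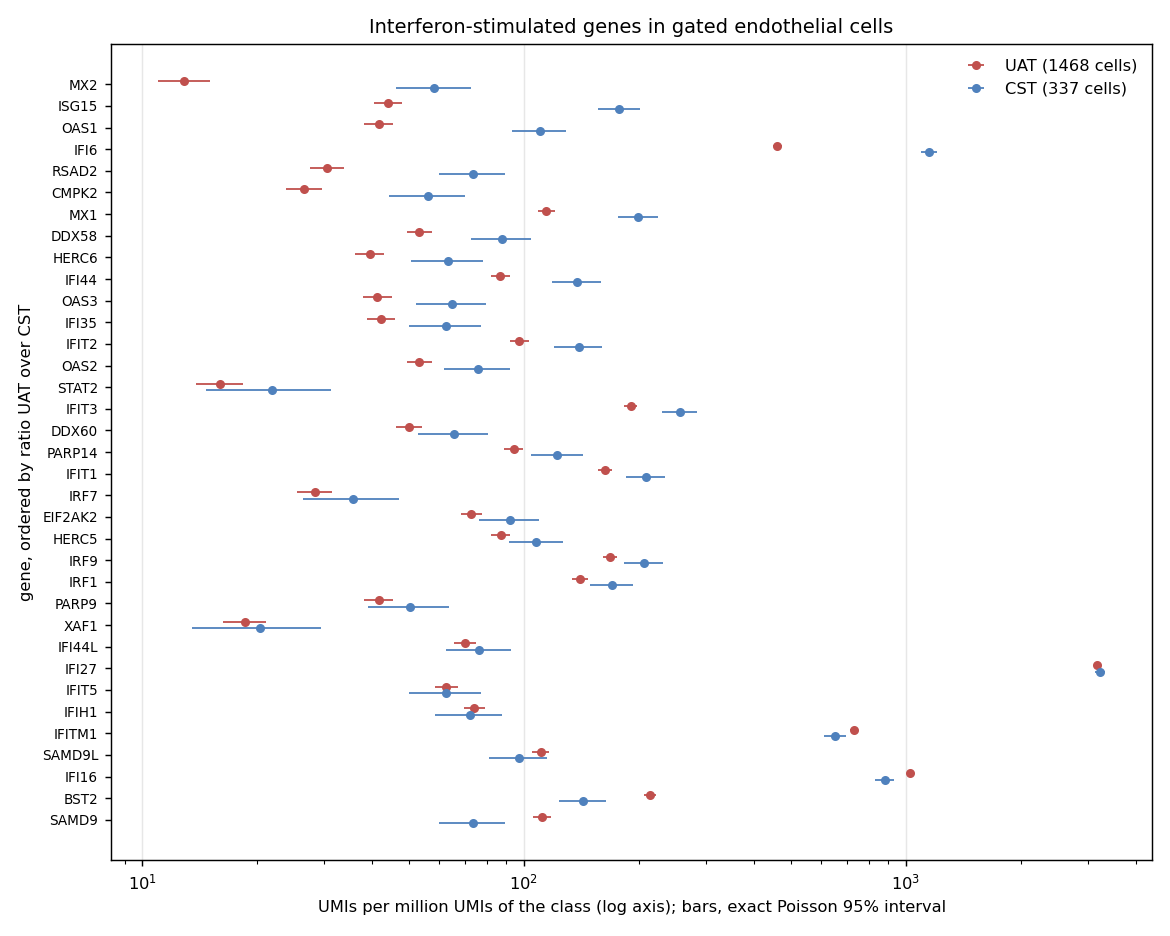
Level of each interferon-stimulated gene in gated endothelial cells, in CPM on a log axis, for UAT (red, 1468 cells) and CST (blue, 337 cells), with exact Poisson 95% intervals. Genes are ordered by their ratio: MX2 (12.9 against 58.3 CPM) and ISG15 (44.1 against 178 CPM) stand at the top, IFI27 is level, and SAMD9 and BST2 stand at the bottom.

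The same genes were counted per cell after each cell was thinned to 1000 UMIs, since detection depends on depth and the median UAT endothelial cell had 6776 UMIs against 3223 in CST. ISG15 was then detected in 4.25% (3.27 to 5.42) of UAT and 12.99% (9.56 to 17.1) of CST endothelial cells. IFI6 was detected in 32.9% and 54.7%, MX2 in 0.823% and 6.95%, and OAS1 in 3.43% and 9.67%. Detection of these genes was thus lower in UAT at matched depth as well. IFITM1 was detected in 47.7% and 39.9% of cells, IFI16 in 62.9% and 52.9%, and IFI27 in 80.95% and 88.5%. In CST spermatids thinned alike, ISG15 was found in 0.118% of cells, IFI6 in 0.674% and IFI27 in 1.47%. How much of this was free RNA was not tested. It gives no background level for UAT, which had no spermatids.

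Endothelial expression was spread over many cells. A thinned UAT endothelial cell had a mean of 4.37 of the 37 genes detected and a CST one 5.22, and 5 or more were detected in 41.7% (39.1 to 44.3) and 53.5% (47.9 to 59.0) of cells. The 5 cells with most UMIs of the 37 genes held 2.98% of them in UAT and 8.04% in CST, and 1.18% and 5.62% of all endothelial UMIs. Of the genes with at least 30 UMIs, 0 of 36 in UAT and 0 of 34 in CST had more than 30% of their UMIs in 5 cells. Cells with an ISG15 UMI more often had most, but not all, of the other members compared with it. In UAT, 24.2% of the 62 endothelial cells with ISG15 also had MX1, against 8.59% of the others. For IFIT3 the UAT shares were 24.2% and 17.25%. In CST, 46.5% of 43 such cells had IFIT3, against 18.8% of the others. For MX1 the CST shares were 16.3% and 12.5%. The other way went IFITM1 (37.1% against 48.2%) and XAF1 (1.61% against 1.79%) in UAT. In CST, IRF1 did so (11.6% against 18.4%). These shares are a description of cells of 1 library each.

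**Figure D3:**
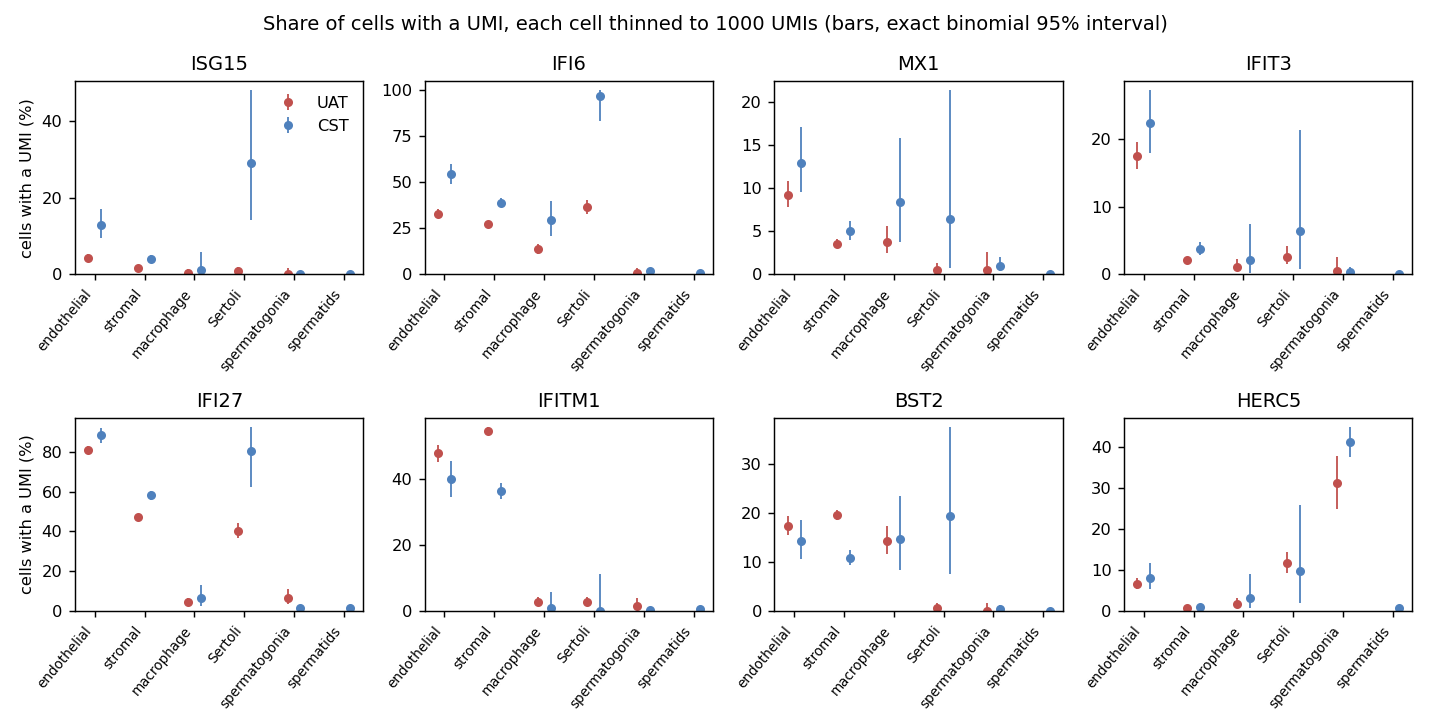
Share of cells with a UMI of 8 interferon-stimulated genes after thinning each cell to 1000 UMIs, by class, in UAT (red) and CST (blue), with exact binomial 95% intervals; spermatids were present in CST alone. ISG15 was detected in 4.25% of UAT and 12.99% of CST endothelial cells, and HERC5 in 31.1% and 41.2% of spermatogonia, its leading class.

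In stromal cells ISG15, IFI6, MX1, MX2 and IFIT3 were at least 1.5-fold lower in UAT, and BST2, IFITM1 and IRF1 were at least 1.5-fold higher. Of the 37 genes, 22 reached 20 CPM. Of these, 5 were at least 1.5-fold lower in UAT, beside 14.8% of all 7725 features, and 3 were at least 1.5-fold higher, beside 4.85%. With mitochondrial, ribosomal and spermatid genes left out of the totals, the split was 5 and 5. The median log2 ratio was -0.15, against -0.08 for all features. ISG15 had 15.5 CPM in the abdominal and 40.6 CPM in the scrotal testis, a ratio of 0.382 (0.335 to 0.438). IFI6 had 390 and 649 CPM, a ratio of 0.6004 (0.5818 to 0.6196). MX1 had 41.7 and 69.5 CPM (0.599), MX2 23.1 and 40.5 CPM (0.569) and IFIT3 22.3 and 37.6 CPM (0.593). These 5 were the lower genes. IFI27 had 716 and 1006 CPM, a ratio of 0.712 (0.695 to 0.730), below 1 but within 1.5-fold, as were IFI44 (0.705) and IRF9 (0.767).

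BST2 led the higher side in stromal cells, with 217 CPM in UAT against 117 in CST, or a ratio of 1.85 (1.73 to 1.99). IFITM1 followed with 831 and 477 CPM, a ratio of 1.74 (1.69 to 1.80). IRF1, a transcription factor that interferon gamma and inflammatory cytokines both induce, had 89.5 and 52.1 CPM, a ratio of 1.72 (1.55 to 1.91). IFI16 had a ratio of 1.44 (1.386 to 1.497) and IFIT5 one of 1.40 (1.21 to 1.63). The thinned cells gave the same directions: ISG15 was detected in 1.65% and 4.05% of cells, IFI6 in 27.1% and 38.9%, IFITM1 in 54.4% and 36.3%, and BST2 in 19.5% and 10.8%.

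Different clusters of cells made up the stromal gate in the 2 libraries. Of the UAT stromal cells 3596 lay in cluster 0, 1081 in cluster 2 and 820 in cluster 5, whereas 1280 of the CST ones lay in cluster 3 and 167 in cluster 0. Clusters 5 and 23 scored highest for myoid markers; they held 820 of the 5894 UAT stromal cells in cluster 5, and 15 and 33 of the 1617 CST ones. In the 820 cells ISG15 stood at 11.6 CPM, MX1 at 20.1 CPM and IFITM1 at 639 CPM. Within cluster 0, which both libraries shared, ISG15 stood at 15.3 CPM in UAT and 36.5 CPM in CST, IFI6 at 398 and 642 CPM and MX1 at 44.3 and 77.8 CPM. IFITM1 stood at 833 and 494 CPM there and BST2 at 198 and 124 CPM. For these genes the directions inside cluster 0 were those of the whole gate. Clusters 2 and 5 also held stromal cells of both libraries, with 50 and 15 CST cells. MX1, IFITM1 and BST2 kept their directions in both. IFI6 differed less, at 421 and 460 CPM in cluster 2 and 331.5 and 334.4 CPM in cluster 5. ISG15 stood at 20.2 and 24.5 CPM in cluster 2, the latter from 5 UMIs. IRF1 turned in cluster 5, at 52.4 and 87.2 CPM, the latter from 6 UMIs. Outside the clusters that held more CST than UAT cells, a restriction chosen after the data were seen, 8 genes were at least 1.5-fold lower. Cells without a UMI of the stromal markers PI16 and MFAP5 gave 10, from 1354 of the 5894 UAT and 180 of the 1617 CST stromal cells.

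Myoid cells, the contractile layer around the seminiferous tubules, had no gene on the lower side among those at 20 CPM. Under that limit, USP18 had 5.55 CPM in UAT and 17.4 CPM in CST, a ratio of 0.318 (0.208 to 0.488). Of the 37 genes, 14 reached 20 CPM; 0 of them were at least 1.5-fold lower in UAT, beside 16.3% of all 8007 features, and 6 were at least 1.5-fold higher, beside 8.17%. With the totals taken without mitochondrial, ribosomal and spermatid genes, 1 was lower and 7 were higher. The median log2 ratio was 0.35, against -0.07 for all features. IFITM1 had 463 CPM in the abdominal and 167 CPM in the scrotal testis, a ratio of 2.77 (2.51 to 3.07). IRF1 had 42.7 and 13.5 CPM, a ratio of 3.17 (2.23 to 4.65). BST2 had 234 and 95.5 CPM, a ratio of 2.45 (2.14 to 2.81). IFI35, a leucine zipper protein, had a ratio of 1.80 (1.29 to 2.57), IFIT5 one of 1.56 and IFI44 one of 1.54. Of the 4 genes at least 1.5-fold lower in both endothelial and stromal cells, IFI6 was level and ISG15, MX1 and MX2 were under 20 CPM here. IFI6 had 304 and 299 CPM (1.02, interval 0.937 to 1.10), and ISG15 had 10.98 and 11.49 CPM, under the 20 CPM required.

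The myoid values rest on different cells in the 2 libraries, and their direction depended on which were compared. UAT myoid cells lay mainly in cluster 5 (1051 cells) and CST ones in cluster 23 (358 cells). In cluster 5, with 22 CST cells, IFI6 stood at 306 CPM in UAT and 561 CPM in CST, and IFITM1 at 501 and 441 CPM. BST2 remained higher there, at 250 and 48.1 CPM, the latter from 6 UMIs. With the clusters that held more CST than UAT cells left out, the median log2 ratio of the genes was -0.28, and 7 genes were lower and 4 higher, from 34 CST cells. Whether cluster or testis position sets the myoid difference was not tested.

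Pericytes, the mural cells of small vessels, had genes on both sides in equal number. Of 26 genes at 20 CPM, 9 were at least 1.5-fold lower in UAT, beside 32.4% of all 8305 features, and 9 were at least 1.5-fold higher, beside 19.0%. The median log2 ratio was 0.01, against -0.16 for all features. With 70 CST cells the intervals were wide: 5 lay below 1 and 3 above. IFI27 had 432 CPM in UAT against 1086 in CST, or a ratio of 0.398 (0.336 to 0.474). MX1 had a ratio of 0.392 (0.227 to 0.719), IFIT3 one of 0.485 (0.307 to 0.7998) and PARP14, an ADP-ribosyltransferase, one of 0.460 (0.273 to 0.821). BST2 had 187 and 72.8 CPM, a ratio of 2.57 (1.42 to 5.19), IFITM1 one of 1.86 (1.44 to 2.45) and IFI16 one of 1.86 (1.31 to 2.72). SAMD9L, a relative of SAMD9, was counted as higher with 44 UMIs in UAT and 0 in CST. With 3 UMIs taken as a floor for CST its ratio was 1.19, under 1.5-fold, and the median with it at that floor was also 0.01. Its exact interval began at 0.931 and so included 1. The pericyte directions were not stable: IFI6 turned from 0.770 to 1.08 without the 5 cells that had most of its UMIs, and with barcodes past several gates kept, 23 genes were lower, 2 were higher and IFI16 turned to 0.741.

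Macrophages had the lowest ratio of summed levels among the compared classes, 0.551, and 5 CST cells held a large share of the UMIs behind it. Of 28 genes at 20 CPM, 17 were at least 1.5-fold lower in UAT, beside 18.8% of all 7385 features, and 2 were at least 1.5-fold higher, beside 16.7%. The median log2 ratio was -0.64, against 0.01 for all features, and the intervals of 12 genes lay below 1. ISG15 had 7.19 CPM in UAT, from 33 UMIs, and 109 CPM in CST, from 43 UMIs, a ratio of 0.0660 (0.0406 to 0.106). IFI6 had 225 and 865 CPM, a ratio of 0.260 (0.230 to 0.295). MX1 had 40.1 and 124 CPM (0.323) and MX2 42.3 and 132 CPM (0.321). IFIT3 had a ratio of 0.187 (0.112 to 0.321), OAS3 one of 0.193 (0.105 to 0.373), HERC5 one of 0.279 and IFIT2 one of 0.456. On the higher side IFITM1 had 159 UMIs in UAT against 1 in CST (ratio 13.7, interval 2.42 to 543). Its level was 34.7 CPM in UAT macrophages, against 831 CPM in UAT stromal cells. The stromal gene DCN stood at 297 CPM in UAT and 65.9 CPM in CST macrophages, and the part of stromal RNA in the IFITM1 ratio was not tested. IRF1 had 95.7 and 53.2 CPM, a ratio of 1.80 (1.16 to 2.93). IFI16 (319 and 340 CPM) and BST2 (176 and 150 CPM) were level.

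Of the 95 CST macrophages, 5 held 38.1% of all UMIs of the 37 genes and 10.3% of all UMIs. In UAT the 5 such cells held 6.11% and 3.25%. ISG15 was detected in 7 CST cells, 7.37% of them; the cell with most held 62.8% of its UMIs and the top 5 held 95.4%. The top 5 cells held 52.5% of the UMIs of IFI6, 55.1% of MX1, 50% of MX2, 78.3% of IFIT3 and 68.8% of OAS3, but 20.9% of IFI16 and 25.4% of BST2. Among genes with at least 30 UMIs, 9 of 11 had more than 30% of them in 5 CST cells, against 2 of 30 in UAT.

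The CST cell with most of these UMIs had 169 of them among 21007 UMIs, against a median of 4025 UMIs per CST macrophage, and 25 of the 37 genes detected. No doublet caller was run. The next had 135 among 5334 UMIs, also with 25 genes. They carried UMIs of 9 and 6 of the 10 macrophage markers, of 3 and 1 of the 10 endothelial markers with 3 and 1 UMIs, and of 0 stromal markers. They also carried spermatid markers, 4 of 12 with 16 UMIs in the first cell and 7 of 12 with 29 UMIs in the second, which had 22 UMIs of macrophage markers. In UAT the top cell had 124 such UMIs among 23319 and also 25 genes detected, so a cell with as many of the genes was seen in both testes. Without the 5 cells with most UMIs of each gene in each library, the ISG15 ratio was 0.974, that of IFIT3 0.607, of MX1 0.535, of MX2 0.468, of OAS3 0.407 and of HERC5 0.520. The lowest ratio among these named genes was that of IFI6, 0.395. IFIT2 turned to 1.21, and IRF1 stood at 3.19. The number of lower genes was then 10 in place of 17, and the median log2 ratio was -0.34.

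At a matched 1000 UMIs per cell, IFI6 was detected in 13.6% (11.1 to 16.6) of UAT and 29.5% (20.6 to 39.7) of CST macrophages, and MX2 in 4.596% and 13.68%. ISG15 was then found in 0.475% and 1.05% of macrophages, the latter a single cell. At least 5 genes were detected in 2.22% (1.22 to 3.70) of UAT and 11.6% (5.92 to 19.8) of CST macrophages. The per-cell medians lay closer together, at 1385 and 1592 CPM, than the 90th percentiles, at 2723 and 5942 CPM. The markers of neutrophils and monocytes summed to 2160 CPM in the UAT macrophage gate and 454 CPM in the CST one, with all 6 detected in UAT and S100A12 at 0 in CST. Spermatid markers summed to 5.23 and 4622 CPM. The part of either in these differences was not tested.

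**Figure D4:**
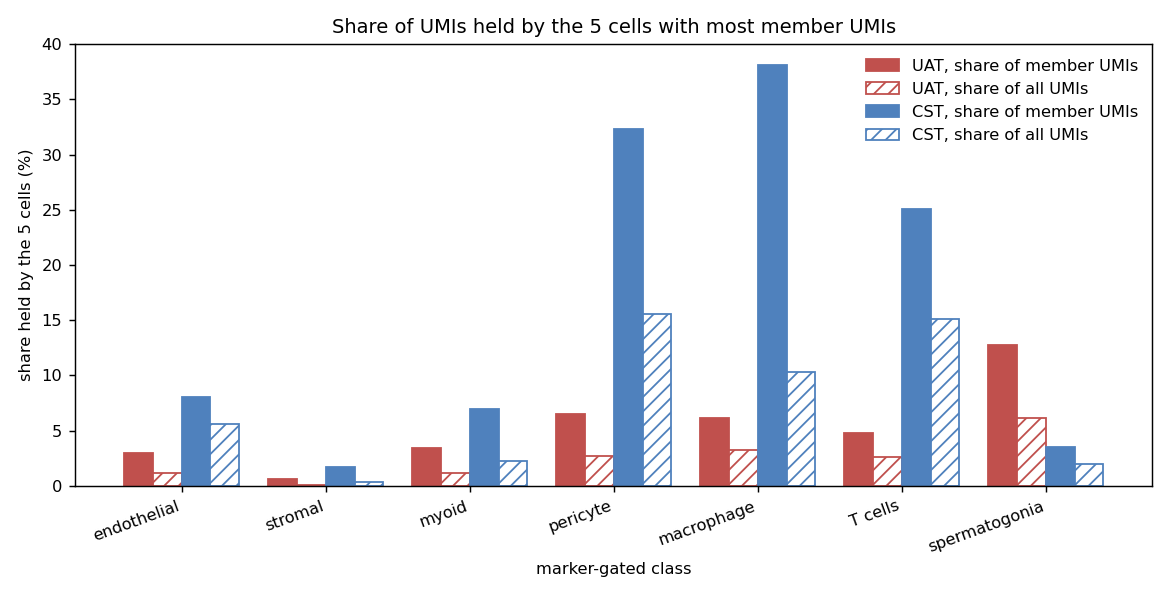
Share of UMIs (vertical axis, per cent) held by the 5 cells with most UMIs of the 37 genes in each class, as a share of those genes' UMIs (filled) and of all UMIs of the class (hatched), in UAT (red) and CST (blue). In CST macrophages the 5 cells held 38.1% of the genes' UMIs and 10.3% of all UMIs, whereas in endothelial cells they held 8.04% and 5.62%.

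T cells had few UMIs of most of these genes. Of 26 genes at 20 CPM, 10 were at least 1.5-fold lower in UAT, beside 34.0% of all 7818 features, and 5 were at least 1.5-fold higher, beside 21.0%; the intervals of 3 lay below 1 and of 5 above. With the median of all features set to 0, 9 were lower and 9 higher. The median log2 ratio was 0.19, against -0.13 for all features. IFI6 had 123 CPM in the abdominal and 366 CPM in the scrotal testis, a ratio of 0.335 (0.239 to 0.475). IFI27 had a ratio of 0.531, which turned to 1.14 without the 5 cells with most of its UMIs. IRF1 had 303 and 159 CPM, a ratio of 1.91 (1.25 to 3.06), and IFITM1 1591 and 1118 CPM, one of 1.42 (1.21 to 1.69). The stromal gene DCN stood at 276 CPM in UAT and 6.90 CPM in CST T cells, and the part of stromal RNA in these ratios was not tested. PARP14 had 62 UMIs in UAT against 1 in CST (ratio 10.1, interval 1.75 to 406). EIF2AK2 had 40 and 0 UMIs. With 3 UMIs taken as a floor for CST its ratio was 2.17, and its exact interval began at 1.69. With EIF2AK2 at that floor the median stayed 0.19. ISG15, with 27 and 4 UMIs, had a ratio of 1.10 with an interval from 0.384 to 4.33, so no direction could be read at this depth.

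Read across the 7 compared classes, the genes differed in direction and did not move as a single block. MX1 was at least 1.5-fold lower in UAT in 5 of the 5 classes where it reached 20 CPM, IFIT3 in 4 of 5, ISG15 in 3 of 4, MX2 in 3 of 4 and OAS3 in 3 of 4. None of these was at least 1.5-fold higher in any class. IRF1 was at least 1.5-fold higher in 6 of 7 classes, endothelial cells being the exception, and BST2 and IFITM1 in 4 of 6 each, with none lower. IFI6 was lower in 4 of 7 and higher in 1, the spermatogonia. IRF9 passed in neither direction in 6 classes. RSAD2, CMPK2 and HERC6 reached 20 CPM in endothelial cells alone. The limit of 20 CPM could be met by the higher library alone, so these tallies partly follow from it. MX1 in T cells had 12.4 CPM in UAT and, from 6 UMIs, 41.4 CPM in CST. IFITM1 in macrophages rested on 1 UMI in CST. Intervals included 1 for IFIT3 in T cells (0.245 to 1.595) and OAS3 in pericytes (0.167 to 1.196). They did so too for IRF1 in pericytes (0.9355 to 4.42) and BST2 in T cells (0.885 to 3.39). Under the limit, MX1 in myoid cells had a ratio of 0.796 (0.574 to 1.12).

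**Figure D5:**
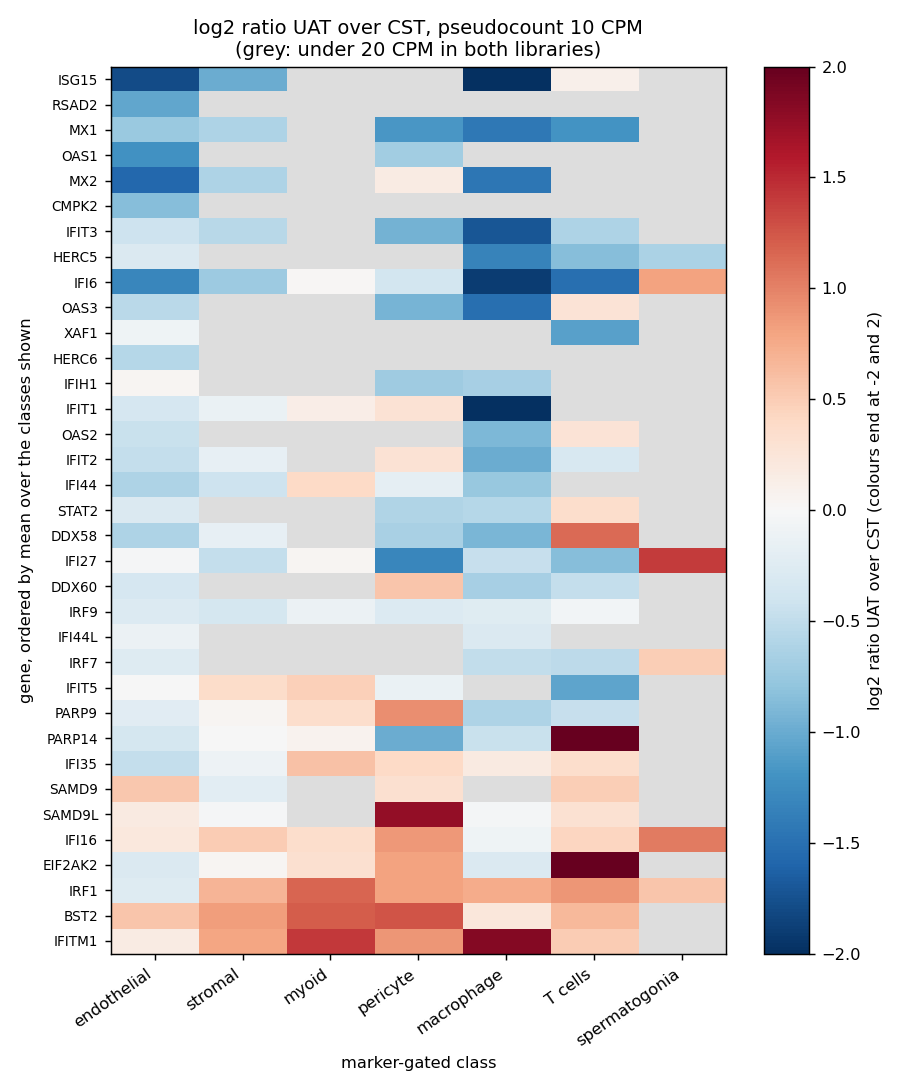
Log2 ratio of UAT over CST, with 10 CPM added to both, for each interferon-stimulated gene (vertical) in 7 marker-gated classes (horizontal); blue is lower in UAT, red is higher and grey is under 20 CPM in both libraries. ISG15 reads -1.80 in endothelial cells and -2.79 in macrophages, beyond the end of the colour scale, and IFITM1 reads 1.42 in myoid cells.

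Spermatogonia expressed 1 gene of the set strongly. HERC5 stood at 358 CPM in UAT and 563 CPM in CST spermatogonia and was detected in 85.3% and 86.0% of them. It ranked first there in both libraries. The next class was Sertoli cells in UAT, at 123 CPM, and endothelial cells in CST, at 108 CPM, with intervals apart from the first in each case. In CST it was lower in the later germ cells, with 25.9 CPM in spermatocytes and 6.86 CPM in spermatids. Thinned to 1000 UMIs, 31.1% of UAT and 41.2% of CST spermatogonia had HERC5. Its partner ISG15 was almost absent from the same cells: 1 UMI in UAT and 8 UMIs in CST over all spermatogonia.

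Of the 37 genes, 6 reached 20 CPM in spermatogonia. HERC5 was the 1 gene at least 1.5-fold lower in UAT, beside 21.9% of all 8638 features, with a ratio of 0.635 (0.599 to 0.674). The other 5 were at least 1.5-fold higher, beside 15.9%. The spermatogonia were not alike in the 2 libraries. In UAT 208 of 218 lay in cluster 9; in CST 358 lay in cluster 9 and 335 in cluster 20. The gate had 25.03 CPM of the differentiation gene KIT in UAT and 98.8 CPM in CST. Within cluster 9, HERC5 stood at 355 CPM in UAT and 386 CPM in CST, whereas in cluster 20 of CST it stood at 727 CPM. Inside the shared cluster the difference was therefore well under 1.5-fold.

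The 5 higher genes in spermatogonia were of low level. IFI27 had 67.3 CPM in UAT against 19.2 in CST, or a ratio of 3.50 (2.88 to 4.27). IFI16 had 21.3 and 5.24 CPM (4.06), IFI6 31.5 and 13.8 CPM (2.29), IRF1 46.8 and 28.6 CPM (1.64) and IRF7 20.02 and 11.27 CPM (1.78). Markers of somatic cells moved the same way in the same gate. The stromal gene DCN stood at 167 and 41.5 CPM, the endothelial gene CLDN5 at 17.5 and 1.94 CPM, and CD74, of antigen-presenting cells, at 62.3 and 11.8 CPM. Their part in these 5 ratios was not tested. In UAT spermatogonia 10 of 18 genes with at least 30 UMIs had more than 30% of them in 5 cells; for IFI27 the share was 45.0%. At 1000 UMIs per cell, IFI6 was found in 0.943% of UAT spermatogonia and ISG15 in 0 of 212; taken as 3 counts, the limit of a count of 0 is 1.42% of cells with a UMI, and the exact 95% upper bound is 1.73%.

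Sertoli cells, the supporting cells of the tubule, ranked first in UAT for IFI6, OAS1, IFIT5 and HERC6 among classes of at least 50 cells. The interval of IFI6 lay apart from that of endothelial cells, the next class, and those of OAS1, IFIT5 and HERC6 overlapped it. IFI6 stood at 491 CPM in UAT and was detected in 80.8% of 696 cells. OAS1 stood at 45.4 CPM, IFIT5 at 66.9 CPM, HERC6 at 42.7 CPM and HERC5 at 123 CPM. These levels came from many cells, since 2 of 30 genes with at least 30 UMIs had more than 30% of them in 5 cells. The 31 CST Sertoli cells had 1603 CPM of IFI6, 1772 CPM of IFI27 and, from 33 UMIs, 105 CPM of ISG15. In UAT, IFI27 stood at 630 CPM and ISG15 at 13.9 CPM. No comparison is drawn from so few CST cells. HERC5 was 124 CPM in CST. Summed over the 37 genes, Sertoli cells had 1754 CPM in UAT and 4287 CPM in CST. In CST 5 cells held 34.7% of the summed UMIs, and DCN stood at 515 CPM in these cells and 262 CPM in UAT, so both also carried stromal RNA. At 1000 UMIs per cell ISG15 was detected in 0.925% of UAT and 29.0% of CST Sertoli cells, and IFI6 in 36.4% and 96.8%. In Leydig cells, which make testosterone, IFI27 stood at 1386 CPM in UAT and 2921 CPM in the 19 CST cells, where 5 cells held 69.3% of the summed UMIs of the 37 genes.

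The upstream and related genes were read from lists of ligands, receptors, kinases, inhibitors and targets. Of 18 interferon ligand symbols 6 matched a feature, and in the compared classes other than T cells 0 of 6 reached 20 CPM. IFNG, interferon gamma, had 46 UMIs in UAT and 4 in CST T cells, a ratio of 1.88 (0.685 to 7.17), and 22 and 1 UMIs in NK cells. IFNB1 had 3 UMIs in UAT and 2 in CST macrophages. IFNE, an interferon of epithelia of the reproductive tract, had 40 UMIs in UAT Sertoli cells. Ligand transcripts were thus too few to compare. Receptors were not: 5 reached 20 CPM in endothelial cells and 0 passed 1.5-fold in either direction. IFNAR1 had 215 and 207 CPM there (ratio 1.04, interval 0.919 to 1.18), IFNAR2 a ratio of 0.689 and IFNGR1 one of 1.41.

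The receptor kinase JAK1 was level in endothelial cells, with 254 CPM in UAT and 244 in CST (ratio 1.04, interval 0.931 to 1.17), as was TYK2 (1.03, interval 0.709 to 1.54). SOCS3, an inhibitor of cytokine receptor kinases that STAT3 induces, was higher in UAT in each of the 6 somatic classes. Its level was 557 and 276 CPM in endothelial cells (2.02, interval 1.82 to 2.24) and 330 and 173 CPM in stromal cells (1.91). The ratio was 1.68 in myoid cells, 1.91 in pericytes, 2.26 in macrophages and 2.12 in T cells.

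Of 18 further nucleic acid sensing genes, 8 reached 20 CPM in endothelial cells and 1 was at least 1.5-fold lower, near the 15.0% of all features. It was DHX58, which encodes LGP2, a relative of RIG-I (0.407, interval 0.328 to 0.508). DHX58 had a ratio of 0.516 (0.440 to 0.607) in stromal cells. Of 17 genes linked to interferon gamma, 11 reached 20 CPM in endothelial cells and 2 were at least 1.5-fold lower, beside the same 15.0%: WARS, a tryptophan tRNA ligase, had a ratio of 0.496 and PSMB9, an immunoproteasome subunit, one of 0.665 (0.617 to 0.718), and none was higher. GBP1, a guanylate-binding protein, was level there (1.03, interval 0.920 to 1.15), as was B2M, the light chain of MHC class I (1.01). In macrophages CIITA, the master regulator of MHC class II, had a ratio of 0.361, ISG20, an exonuclease, one of 0.314 and PSMB9 one of 0.516, while CXCL10, a chemokine that draws T cells, had one of 1.67 (1.04 to 2.85). CD74, a transcript of 7602 CPM in UAT macrophages and 3826 CPM in UAT endothelial cells, had 62.1 CPM in UAT and 5.41 CPM in CST stromal cells.

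Several of the genes are neighbours in the RefSeq gene order of this species: OAS1, OAS3 and OAS2, IFIT2, IFIT3 and IFIT1, MX1 and MX2, RSAD2 and CMPK2, HERC6 and HERC5, SAMD9L and SAMD9, and IFI44 and IFI44L. In endothelial cells both genes of the MX and RSAD2 pairs were at least 1.5-fold lower in UAT. In the IFIT group none was, and in the OAS group OAS1 and OAS3 were. HERC5 and HERC6 differed by cell type, since HERC6 reached 20 CPM in endothelial cells alone among the compared classes and HERC5 led in spermatogonia. A median profile of the genes over the 6 somatic classes was -0.33 in endothelial, -0.16 in stromal and 0.03 in myoid cells. It was -0.13 in pericytes, -0.57 in macrophages and 0.27 in T cells. Outside endothelial cells these values differ from the medians of genes at 20 CPM given above. Among 5014 features at 20 CPM in all 6 classes, those nearest to this profile were NAA38 (distance 0.19), MYL12A (0.22), ATXN10 (0.29), MED21 (0.32) and SMARCD1 (0.33).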

How the data were processed

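The tables hold UMI counts per gene and barcode as deposited by the authors, filtered to barcodes called as cells. Per the file headers they came from Cell Ranger 5.0.0, whereas version 3.0.1 and the mouse build mm10 stand in the submitters' processing notes. The features carry RefSeq names of macaque genes. The build is therefore not settled, and neither coordinates nor sequences are given. Of 11526 features with only a LOC number, 5093 were found in the current RefSeq gene table of this species and 721 took a symbol. GBP1 came from such a number, and MB21D1, TMEM173 and WARS are older symbols in the files.

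Computed here with Python 3.11.15, numpy 2.4.6, scipy 1.17.1, pandas 2.3.3 and matplotlib 3.10.9: barcodes with at least 500 detected genes were scored by the mean log2(1 + UMIs per 10000) of each class's markers. A class needed 3 markers and a score past a threshold set after the files were seen. Barcodes past the thresholds of several lineages (492 in UAT, 475 in CST) were left out, and no doublet caller was run. Leiden clusters (scanpy 1.11.5, 2000 variable genes, 40 components, 15 neighbours, resolution 1) were used as an alternative and to describe the gates. UMIs were summed per gate. Ratios have exact conditional binomial intervals, levels exact Poisson intervals, and shares of cells exact Clopper-Pearson intervals. Genes were counted at 20 CPM or more in either library and a change of at least 1.5-fold; log2 ratios used 10 CPM as pseudocount. Named per class were up to the 8 lowest and 4 highest genes, by the interval bound nearest to 1. They needed at least 30 UMIs in the library with more UMIs of the gene. The library with the higher CPM could have fewer, as for OAS3 in macrophages, with 36 UMIs in UAT and 16 in CST. Genes of each family and a few others named beside them, in values by role, by cluster and in Sertoli and Leydig cells, were chosen after their values were seen. The members, markers and lists were chosen with earlier results of these data known. Poisson counts were simulated from the summed UMIs of each gate, with a 2-fold change in some genes. In endothelial cells the interval lay on the right side of 1 for 90.0% of changed genes. The share was 69.0% in macrophages, 41.0% in pericytes and 29.5% in T cells. Spread between cells was not simulated, so these shares do not cover genes whose UMIs lie in few cells. With 1 library per group no test over samples was possible.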

Additional observations from a re-analysis of the deposited data

How the results depend on the processing

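No paired analysis was possible because each group has 1 library. Shares of all features past the fold were counted for the main setting alone. Counts of genes under alternatives, in this section and above, therefore have no such share beside them. The endothelial median log2 ratio stayed between -0.38 and -0.28 and the macrophage one between -0.84 and -0.34 over the alternatives run, whereas the pericyte one ran from -0.77 to 0.50. Of 606 values of 56 genes named in a class (EIF2AK2 in T cells, at 0 UMIs in CST, has no finite ratio) under alternatives, 511 lay within the interval of the reported value, 90 lay outside it in the same direction and 5 changed direction: IFITM1 in endothelial cells (0.977, stricter gate), IFI6 in pericytes (1.08), IFIT2 in macrophages (1.21) and IFI27 in T cells (1.14), each without the 5 top cells, and IFI16 in pericytes (0.741, barcodes of several gates kept). The ratio of shares of macrophages with BST2 went from 0.967 to 1.08 when cells were thinned to 2000 UMIs in place of 1000.

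With a 2-fold limit, lower and higher genes numbered 6 and 0 in endothelial cells, 1 and 0 in stromal cells, 5 and 3 in pericytes, 11 and 1 in macrophages, 5 and 3 in T cells and 0 and 3 in spermatogonia, with 3 higher in myoid cells. With a limit of 50 CPM, the stromal median was -0.35 with 2 lower; 2 were higher in myoid cells and 1 in spermatogonia; lower and higher numbered 4 and 5 in pericytes, 9 and 1 in macrophages and 3 and 3 in T cells. With no limit, 12 were lower in stromal cells, 3 in myoid cells and 14 in pericytes; 12 were higher in T cells; spermatogonia had a median of 0.15 with 3 lower and 25 higher. A stricter gate gave 2 higher endothelial, 5 higher stromal, 1 lower myoid, 12 higher T cell and 2 higher spermatogonial genes, the last with a median of 0.35. Without the 5 top cells 2 were higher in endothelial cells, 10 lower in macrophages and 3 higher in spermatogonia. A denominator without mitochondrial, ribosomal and spermatid genes gave 2 higher endothelial, 5 higher stromal, 1 lower myoid and 9 higher T cell genes. Setting the median of all features to 0 gave 2 higher in endothelial and 9 in T cells. Thinning gave 2 higher endothelial, 3 lower myoid, 6 higher macrophage and 9 higher T cell genes. Equal weight per cell gave 0 higher endothelial, 8 higher T cell and 0 lower spermatogonial genes. Leiden classes gave 4 higher macrophage and 4 lower T cell genes and a spermatogonial median of 1.04. Keeping barcodes of several gates gave 23 lower and 2 higher in pericytes and 4 higher in macrophages. A minimum of 1000 genes gave 6 lower and 8 higher in T cells. Without lymphatic-marker cells 2 were higher in endothelial cells, from 423 UAT and 198 CST cells. Without PI16 and MFAP5 cells 10 were lower in stromal cells, from 1354 UAT and 180 CST cells. Outside clusters with more CST cells, an alternative chosen after seeing the data, 8 were lower in stromal cells and the myoid median was -0.28 with 7 lower. The cause of these differences was not tested. Depth limits pericytes, T cells and CST macrophages most.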
